A study of Mus musculus with 8 samples.

Results

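The genes described here encode the proteasome, the protease complex that degrades ubiquitin-tagged proteins, with its regulators and assembly factors, in hearts of mice given Fgf17 by a viral vector. They were chosen by gene name, as every gene whose symbol begins with Psm, a letter from a to g and a digit. The rule found 49 of the 11704 listed genes. Of these, 47 had a mean of at least 1 FPKM (sequenced fragments of a gene, divided by its transcript length and the library's total) over the libraries and were tested among 10025 genes. Psma8, a testis form of an alpha subunit, and Psmg3, an assembly factor, had means of 0.915 and 0.889 FPKM and were not tested. Psmb11 was not analysed here. Psmc3ip was found by its name and is counted among the 47 below, but it encodes a cofactor of meiotic recombination and not a subunit.

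RNA was sequenced from the hearts of mice that were injected under the skin as newborns and collected at 8 to 10 weeks of age. In the AAV-FGF17 group, 4 libraries were made from hearts of animals given an adeno-associated virus of serotype 9 that delivered the mouse Fgf17 gene, and in the control vector group 4 were made from hearts of animals given the vector's control. Strain, sex, the promoter that drives Fgf17 and the cargo of the control vector are not given in the sources used here. Column names of the data refer to sham and the title of the series to infarction, so whether the animals were operated on is unknown. Libraries of a group carry replicate numbers in the labels, which do not say whether each is a separate animal, so the spread behind the p-values may be technical. The question is how proteasome transcripts of the adult heart differ when the vector supplies Fgf17, a secreted fibroblast growth factor.

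The proteasome is a barrel of stacked rings, the 20S core, capped by the 19S regulator. Outer alpha rings gate the barrel and inner beta rings hold the proteolytic sites, while the cap binds ubiquitin chains, removes them and threads the unfolded protein inward with a ring of ATPases. Heart muscle relies on it to turn over sarcomere proteins and misfolded proteins, and cells short of proteasome activity raise many subunit genes together through the transcription factor NFE2L1. Interferon replaces the constitutive catalytic subunits with immunoproteasome subunits and adds a further cap, the PA28 activator, which changes the peptides made for antigen presentation.

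The start of a gene is where such factors act. Windows from 250 bases before to 50 after the RefSeq start (GRCm38.p6) are therefore shown for 4 genes. Of these, 3 are subunit genes among the 6 whose windows hold an antioxidant response element core, and 1 is a PA28 gene. Psmd3 and Psmg1, the genes of smallest p below, are not among those shown. Capitals mark a match to a searched motif. In Psmb5 (chr14:54617946-54618245, minus strand) and Psmb6 (chr11:70525107-70525406, plus strand), which encode constitutive catalytic subunits, the capitals are the core of the antioxidant response element, TGACNNNGC, bound by NFE2L1 and NFE2L2, beginning at -47 and -9 from the start. In Psmc6 (chr14:45329574-45329873, plus strand), an ATPase of the cap, the same core lies on the other strand at -227. In Psme1 (chr14:55578244-55578543, plus strand), the alpha subunit of PA28, the capitals are the core of an interferon-stimulated response element, GAAANNGAA, on the other strand at 10.
Psmb5: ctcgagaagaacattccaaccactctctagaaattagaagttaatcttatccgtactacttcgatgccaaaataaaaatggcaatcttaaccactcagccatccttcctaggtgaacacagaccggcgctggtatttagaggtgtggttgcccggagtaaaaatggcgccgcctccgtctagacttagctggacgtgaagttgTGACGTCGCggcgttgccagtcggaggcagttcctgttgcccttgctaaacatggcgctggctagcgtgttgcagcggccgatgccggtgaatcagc
Psmb6: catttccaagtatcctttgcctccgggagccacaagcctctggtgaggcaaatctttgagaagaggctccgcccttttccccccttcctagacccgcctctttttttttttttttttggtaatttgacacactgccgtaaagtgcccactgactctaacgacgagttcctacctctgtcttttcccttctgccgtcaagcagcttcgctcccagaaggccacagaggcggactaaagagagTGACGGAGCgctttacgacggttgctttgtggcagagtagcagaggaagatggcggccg
Psmc6: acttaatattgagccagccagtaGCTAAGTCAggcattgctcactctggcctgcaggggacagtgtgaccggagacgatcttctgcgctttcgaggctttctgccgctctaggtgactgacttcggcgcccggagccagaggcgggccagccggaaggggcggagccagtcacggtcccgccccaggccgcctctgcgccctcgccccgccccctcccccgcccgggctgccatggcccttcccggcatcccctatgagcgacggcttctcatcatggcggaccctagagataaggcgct
Psme1: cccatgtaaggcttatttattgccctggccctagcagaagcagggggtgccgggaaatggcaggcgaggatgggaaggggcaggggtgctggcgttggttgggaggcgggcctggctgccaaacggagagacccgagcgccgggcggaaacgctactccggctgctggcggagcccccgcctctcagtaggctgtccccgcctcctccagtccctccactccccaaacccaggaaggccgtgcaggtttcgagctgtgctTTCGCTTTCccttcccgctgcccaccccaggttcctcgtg

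RefSeq held 44 such windows for 41 of the 49 genes. With both strands searched, the antioxidant response core was present in 6 of them (Psmb5, Psmb6, Psmc6, Psmd9, Psmd12 and Psme4), or 13.6%, against 12.4% of all 32851 windows of this length. The interferon response core was present in 7 (15.9%, against 8.56% of all), and CCAAT, the box bound by NF-Y, in 14 (31.8%, against 37.4%). A match of letters is a description of these windows and says nothing of binding.

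The labels were checked with Fgf17 itself, whose FPKM were 90.8, 173, 69.0 and 123 with AAV-FGF17 (libraries 1 to 4) and 9.59, 1.43, 0.560 and 9.86 with the control vector (libraries 1 to 4). A two-sided exact permutation test over libraries gave p = 0.0286, the smallest that 4 against 4 allows, as no library of one group lay within the other. Its log2 change was 4.57 as fitted, with a limma adjusted p of 0.248 that ranged from 0.0189 to 0.725 over the alternatives. Heart muscle genes were abundant in every library, with the 7 cardiomyocyte markers summing to between 11227 and 23602 FPKM.

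Control libraries 2 and 3 stood apart from the other 6 before any comparison of groups. Transcripts encoded by the mitochondrial genome made up 44.5% and 30.9% of their FPKM, against 62.8% to 66.9% elsewhere, and their cardiomyocyte markers summed to 18623 and 23602 FPKM, against 11227 to 12290. Because FPKM are shares of a library, nuclear genes are raised where mitochondrial transcripts are few. Log2 changes given below are therefore followed by the value without these libraries where its sign turned or its size moved by over 1.5 times. Such values have control libraries 1 and 4 as their only controls. These were close in Fgf17 (9.59 and 9.86 FPKM) and in summed atrial (2209 and 2228 FPKM) and endothelial markers (120.0 and 120.5 FPKM). In Psmb9 they were not (2.07 and 0.437 FPKM). Whether they are separate animals is unknown, so intervals and p-values from this smaller set may understate the spread. In whole hearts, fewer cells of a type and less RNA per cell cannot be told apart.

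Proteasome genes did not pass the test in either direction. With limma, 0 of the 47 tested genes had an adjusted p under 0.05 on the higher side and 0 on the lower side, as among all 10025 genes (0% in each direction). Their smallest limma adjusted p was 0.495. The median log2 change was -0.09 as fitted, against -0.12 for all genes, so the median proteasome gene lay 0.03 above the median gene. Relative to the median gene 27 lay above it and 20 below, with a range from -0.59 (Psmg1) to 0.47 (Psmg4).

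The precision limits what these counts can show. The median half-width of the 95% interval of a log2 change was 0.33 among proteasome genes, and 0.24 without control libraries 2 and 3. At an unadjusted limma p under 0.05, 0 proteasome genes were higher (1.36% of all genes) and 2, Psmd3 and Psmg1, were lower (7.98% of all genes). All 4 AAV-FGF17 libraries lay above all 4 controls in 2 of the 47 genes (0.998% of all genes), Psmc6 and Psmc3ip, of which Psmc3ip encodes no subunit. They lay below all 4 controls in 1, Psmd3 (4.64% of all genes).

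Another scaling of the libraries shifted all genes together and, with them, the proteasome genes. After median-of-ratios scaling the median of all genes moved from -0.12 to 0.00 and that of the proteasome genes to 0.05, with 29 above 0 and 18 below. There 5 of the 47 genes had an unadjusted limma p under 0.05 on the higher side (Psmb7, Psmb3, Psma2, Psmc6 and the non-subunit Psmc3ip, against 4.6% of all genes) and 0 on the lower side (3.89%). The groups then did not overlap in 4 higher genes, Psma1, Psma2, Psmb7 and the non-subunit Psmc3ip (2.86% of all genes), and in 0 lower ones (2.42%). The smallest limma adjusted p of a proteasome gene was 0.563 on that scale.

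**Figure D1:**
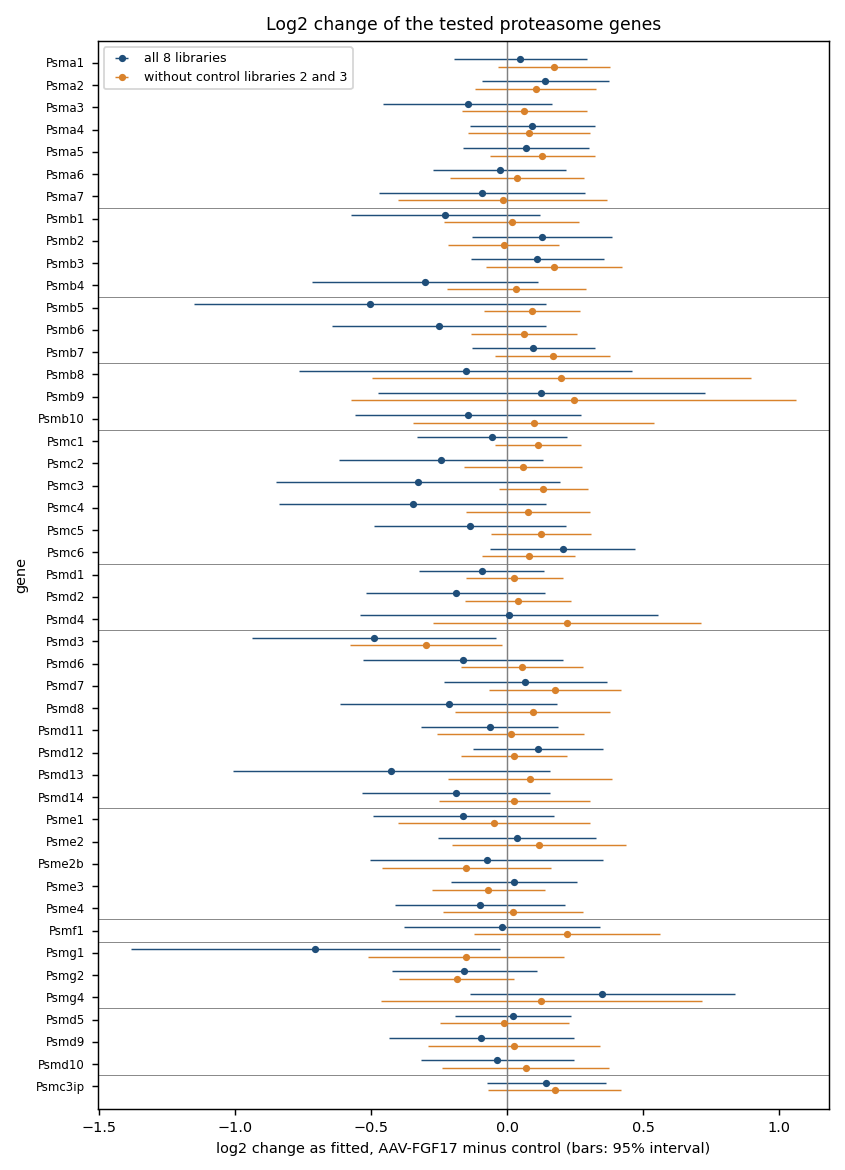
Log2 change of log2(FPKM + 1) as fitted, AAV-FGF17 minus control, for the 47 tested proteasome genes ordered by role, with all 8 libraries (blue) and without control libraries 2 and 3 (orange); points are estimates and bars 95% intervals. With all libraries the intervals of Psmd3 and Psmg1 lie below 0, and without control libraries 2 and 3 that of Psmd3, while most of the points left of 0 move to its right.

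Leaving out control libraries 2 and 3 moved the signs of most of these genes. The log2 change took the opposite sign in 27 of the 47, of which 24 went from below 0 to above it and 3 the other way. The median became 0.07, with 38 above 0 and 9 below, while for all genes it was -0.02, with 4394 above and 5631 below. At an unadjusted limma p under 0.05, 0 proteasome genes were then higher (2.24% of all genes) and 1, Psmd3, was lower (2.39%), and the smallest limma adjusted p of a proteasome gene was 0.932. The plot of log2 changes shows both sets of values side by side.

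The share of nuclear FPKM that fell to the 49 proteasome genes is itself a scaling, by the nuclear total of each library. It was 0.708%, 0.724%, 0.700% and 0.732% in the AAV-FGF17 group (libraries 1 to 4) and 0.685%, 0.677%, 0.630% and 0.692% in the control group (likewise 1 to 4). All 4 AAV-FGF17 values lay above all 4 control values, by little between the lowest of one and the highest of the other, and control library 3 was the lowest. No test is given for this sum. Of all FPKM, mitochondrial transcripts included, the share was 0.376% and 0.435% in control libraries 2 and 3 and between 0.240% and 0.268% in the other 6. Control libraries 2 and 3 were thus the lowest of the 8 by the nuclear share and the highest by the share of all FPKM.

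Proteasome genes were among the more abundant transcripts of these hearts, but the subunits of one complex were not at one level. Subunits that stand in equal numbers in the 20S core (14 constitutive subunits) had means over the 8 libraries from 11.7 FPKM (Psmb3) to 73.0 FPKM (Psmb1), a range of 6.25-fold. The 17 cap subunits that the name rule found ranged from 8.02 FPKM (Psmd13) to 83.2 FPKM (Psmc1), or 10.4-fold. Adrm1, a cap subunit outside the rule, stood lower, at 7.74 FPKM. The median tested gene stood at 4.67 FPKM.

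These levels were steady outside the libraries that stood apart. Over the other 6 libraries, both groups together, the median coefficient of variation was 8.12% for the core subunits and 6.41% for the cap subunits, and the highest was 13.7% and 22.6%. The immunoproteasome subunits were lower, from 1.47 FPKM (Psmb9) to 9.56 FPKM (Psmb10), and the inhibitor Psmf1 stood at 1.57 FPKM. Levels are uncertain where copies share sequence: at least 20% of the 50-base stretches of 11 of the 49 genes, and at least 50% of those of Psma5, Psmb3, Psmb5, Psme2 and Psme2b, also occur in another gene.

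The alpha ring forms the gate of the barrel, and 7 of its 8 genes were tested. Psma4, its most abundant gene, measured 63.6, 63.1, 65.7 and 76.2 FPKM in the AAV-FGF17 group (libraries 1 to 4, the order kept below) and 61.7, 60.2, 64.1 and 64.9 FPKM in control libraries 1 to 4. Psma2, the one of smallest p, measured 18.4, 18.9, 18.8 and 22.0 FPKM against 18.1, 18.7, 15.7 and 18.0 FPKM. In both genes AAV-FGF17 library 4 was the highest of all, and the groups overlapped. The log2 change of Psma2 was 0.14 ± 0.11 (SE; limma adjusted p = 0.542), and the 7 genes lay between -0.03 and 0.26 relative to the median gene.

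The beta ring genes without proteolytic sites, Psmb1 to Psmb4, did not share a direction. Psmb1, the most abundant core gene, measured 62.3, 61.2, 67.4 and 76.1 FPKM in AAV-FGF17 libraries and 62.3, 97.9, 87.6 and 69.2 FPKM in controls. Psmb4 measured 12.5, 12.7, 13.9 and 15.3 FPKM against 14.1, 20.3, 23.2 and 12.4 FPKM. Control libraries 2 and 3 were the highest of the 8 in both genes, and the other 2 controls lay within the AAV-FGF17 range or just outside it. In Psmb2 they were the lowest of the 8, at 40.1 and 41.8 FPKM, against 51.3 and 48.7 FPKM in controls 1 and 4.

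The constitutive catalytic subunits cut after different residues: Psmb6 carries the caspase-like, Psmb7 the trypsin-like and Psmb5 the chymotrypsin-like site. Psmb5 (ENSMUSG00000022193.7, chr14:54614119-54618022, minus strand) measured 19.8, 20.4, 19.5 and 20.7 FPKM in the AAV-FGF17 group and 18.9, 38.9, 50.3 and 18.7 FPKM in control libraries 1 to 4. The AAV-FGF17 libraries were nearly equal, controls 1 and 4 lay just below them, and controls 2 and 3 lay far above. Its log2 change was -0.50 ± 0.29 (SE; limma adjusted p = 0.497), the most negative among the 20S core subunits, and it was 0.09 without control libraries 2 and 3.

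Psmb6 had the same shape at smaller size, with 42.7, 45.6, 41.3 and 47.4 FPKM against 42.7, 59.2, 72.8 and 41.8 FPKM. Psmb7 did not, with 31.1, 34.5, 32.8 and 37.2 FPKM against 29.7, 32.8, 33.6 and 30.4 FPKM. Controls 2 and 3 thus stood above all AAV-FGF17 libraries in Psmb5 and Psmb6 but inside their range in Psmb7. The log2 changes of Psmb6 and Psmb7 were -0.25 ± 0.18 and 0.10 ± 0.10 (SE; limma adjusted p = 0.536 and 0.646), and 0.06 and 0.17 without control libraries 2 and 3. Of the transcript sequence of Psmb5, 57.1% of the 50-base stretches also occur in Gm3375, and 28.1% of those of Psmb7 occur in the overlapping gene Nek6, so how reads were divided between them is uncertain.

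**Figure D2:**
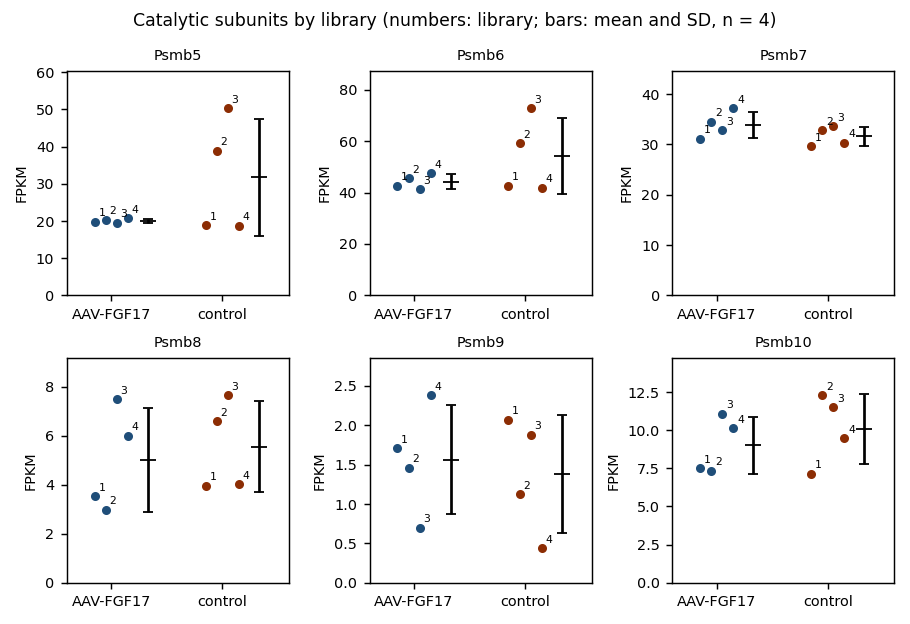
FPKM of the constitutive catalytic subunits (Psmb5, Psmb6, Psmb7) and the immunoproteasome subunits (Psmb8, Psmb9, Psmb10) in each library, numbered within its group; bars are the mean and SD of 4 libraries. In Psmb5 control libraries 2 and 3, at 38.9 and 50.3 FPKM, lie above the other 6, which lie between 18.7 and 20.7 FPKM.

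The immunoproteasome subunits take the places of the constitutive ones, Psmb8 that of Psmb5, Psmb9 that of Psmb6 and Psmb10 that of Psmb7. Psmb8 measured 3.53, 2.99, 7.48 and 6.01 FPKM in the AAV-FGF17 group and 3.96, 6.60, 7.64 and 4.01 FPKM in control libraries 1 to 4. Each group thus held a lower and a higher pair of libraries. The log2 change was -0.15 ± 0.27 (SE; limma adjusted p = 0.797), and its 95% interval, from -0.76 to 0.46, was wide. Without control libraries 2 and 3 it was 0.20.

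Psmb10 followed the same pairs, with 7.51, 7.34, 11.1 and 10.1 FPKM against 7.15, 12.3, 11.5 and 9.47 FPKM (log2 change -0.14 ± 0.19 SE, limma adjusted p = 0.713; 0.10 without control libraries 2 and 3). Psmb9 measured 1.71, 1.46, 0.698 and 2.38 FPKM against 2.07, 1.12, 1.88 and 0.437 FPKM and did not follow them. Its coefficient of variation over the 6 libraries was 52.2%, the highest of the 3, and 12.5% of its 50-base stretches occur in the neighbouring antigen transporter gene Tap1. Its log2 change was 0.13 ± 0.27 (SE; limma adjusted p = 0.830), and 0.24 without control libraries 2 and 3.

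Set against the subunit it replaces, Psmb8 stood at 17.8%, 14.7%, 38.4% and 29.0% of Psmb5 in AAV-FGF17 libraries and at 20.9%, 16.98%, 15.2% and 21.5% in controls. Psmb10 stood at 24.1%, 21.3%, 33.8% and 27.2% of Psmb7 against 24.1%, 37.4%, 34.3% and 31.2%. Psmb9 stayed between 1.04% and 5.02% of Psmb6 in all 8 libraries. Ratios within a library do not depend on its scaling, and in none of these pairs did the groups separate. The constitutive subunit was the more abundant transcript of every pair in every library.

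Leukocytes carry more immunoproteasome than heart muscle, and their markers were read beside these subunits. The 8 tested of 9 macrophage markers, with Lyz2 (97.1 ± 25.5 FPKM in AAV-FGF17 hearts, 107 ± 23.2 in controls, SD, n = 4) and C1qb (42.8 ± 10.4 and 39.2 ± 4.62) the most abundant, had summed levels for the whole list of 184.6, 155.5, 259 and 248 FPKM in AAV-FGF17 libraries and 196, 262, 242 and 188 FPKM in controls. The 4 libraries with the highest sums, AAV-FGF17 libraries 3 and 4 and control libraries 2 and 3, were the 4 with the highest Psmb8 and Psmb10. The sums of the general leukocyte markers, given next, did not follow this order in the controls. The part of macrophages in the levels of Psmb8 and Psmb10 was not tested.

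Other leukocyte lists were small. The 6 leukocyte markers summed to 14.8, 16.1, 25.8 and 23.3 FPKM in AAV-FGF17 libraries and 18.1, 14.2, 17.3 and 15.5 FPKM in controls. Control library 2 had the lowest sum of all libraries, and control library 3 lay below control library 1. Tyrobp measured 8.91 ± 1.93 and 6.05 ± 1.41 FPKM and Laptm5 3.58 ± 0.880 and 3.76 ± 0.976 FPKM. All 4 of the tested ones lay above the median gene, and 0 passed limma. The 6 T-cell markers, and 4 of the 5 B-cell markers, are not in the table used here, which holds only genes with a group mean of at least 0.501 FPKM. The remaining one, Cd74, which macrophages also express, measured 45.2 ± 8.14 and 56.4 ± 14.6 FPKM.

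The ATPases of the cap unfold the substrate and push it into the barrel, and their 6 genes did not behave alike. Psmc1, the most abundant of all proteasome genes, measured 79.4, 81.1, 84.9 and 79.5 FPKM in AAV-FGF17 libraries and 73.7, 103, 87.7 and 76.4 FPKM in controls. Psmc6 (ENSMUSG00000021832.8, chr14:45329788-45349705, plus strand) measured 35.8, 35.9, 34.5 and 37.3 FPKM against 33.3, 32.3, 24.9 and 34.4 FPKM. In Psmc6 every AAV-FGF17 library lay above every control, though AAV-FGF17 library 3 exceeded control library 4 by little, and control library 3 was far the lowest.

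The log2 change of Psmc6 was 0.20 ± 0.12 (SE; limma adjusted p = 0.4998) and 0.08 without control libraries 2 and 3, and its groups overlapped after median-of-ratios scaling. The other 5 ATPase genes had negative log2 changes, from -0.35 (Psmc4) to -0.06 (Psmc1). Without control libraries 2 and 3 these 5 lay between 0.06 and 0.13. Psmc3 reached 87.1 and 111 FPKM in control libraries 2 and 3, against 51.0 to 59.3 FPKM in the other 6.

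The other base subunits bind ubiquitin and shuttle factors. Psmd2, a docking scaffold and the gene of both highest level and smallest p among them, measured 29.5, 26.5, 30.6 and 28.6 FPKM in AAV-FGF17 libraries and 28.1, 34.6, 43.3 and 27.8 FPKM in controls. Here too controls 2 and 3 were the highest and controls 1 and 4 lay within the AAV-FGF17 range. Outside control libraries 2 and 3, the ubiquitin receptor Psmd4 had the highest coefficient of variation of the cap subunits found by name, 22.6%. Over all libraries it ran from 15.5 to 34.8 FPKM. It differed little between groups on average (log2 change 0.01 ± 0.24 SE, limma adjusted p = 0.992; 0.22 without control libraries 2 and 3).

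The lid clips ubiquitin chains from the substrate. Psmd3 (ENSMUSG00000017221.14, chr11:98682554-98695979, plus strand), a scaffold subunit of the lid, measured 10.5, 7.92, 9.17 and 8.28 FPKM in the AAV-FGF17 group and 11.4, 10.6, 20.8 and 11.0 FPKM in control libraries 1 to 4. Every AAV-FGF17 library lay below every control, the closest pair being AAV-FGF17 library 1 and control library 2, and control library 3 stood far above the rest. The log2 change was -0.49 ± 0.20 (SE; unadjusted p = 0.0358, limma adjusted p = 0.495).

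Of the 2 genes past an unadjusted p of 0.05, Psmd3 remained past it without control libraries 2 and 3. Its log2 change against control libraries 1 and 4 alone was -0.30, with an unadjusted limma p of 0.0401 and an adjusted p of 0.932. After median-of-ratios scaling its groups overlapped (log2 change -0.35, limma adjusted p = 0.563). Psmd7, the most abundant lid gene and partner of the deubiquitinase Psmd14, measured 64.6, 59.5, 62.8 and 75.7 FPKM against 57.7, 58.1, 78.1 and 57.8 FPKM, where AAV-FGF17 library 4 and control library 3 were the high ones.

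The other lid genes overlapped between the groups. Psmd14 itself measured between 13.9 and 18.0 FPKM in AAV-FGF17 hearts and between 14.6 and 23.0 FPKM in controls. Psmd13 reached 11.9 and 14.5 FPKM in control libraries 2 and 3, against 5.26 to 6.88 FPKM in the other 6, and shares 15.8% of its 50-base stretches with its neighbour Sirt3. Its log2 change went from -0.42 to 0.08 without these libraries.

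Activators replace the cap or join it, and their 5 genes lay close to the median gene, from -0.04 to 0.15. Psme1, the interferon-inducible alpha subunit of PA28, measured 30.04, 23.5, 34.9 and 28.4 FPKM in AAV-FGF17 libraries and 32.2, 31.1, 39.8 and 27.8 FPKM in controls. Psme2, its beta subunit, measured 16.2, 14.2, 18.6 and 19.9 FPKM against 16.1, 16.1, 19.3 and 15.2 FPKM. Library 3 of each group was the highest or next to it in both genes, and the groups overlapped.

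Psme2b, an intronless copy of Psme2, measured 4.94, 4.02, 4.69 and 5.60 FPKM against 5.85, 6.98, 3.20 and 5.01 FPKM. As 69.3% of its 50-base stretches occur in Psme2, and 59.3% of those of Psme2 in it, the split between this pair is uncertain. Psme3, the nuclear PA28 gamma, measured 16.3, 15.7, 15.4 and 17.2 FPKM against 16.2, 14.3, 15.2 and 17.8 FPKM. Psme4, the large activator PA200, measured 34.7, 30.2, 32.1 and 26.9 FPKM against 29.5, 42.6, 30.7 and 31.3 FPKM, with control library 2 alone above the rest. The 5 limma adjusted p-values of the activators were 0.612 or above. The log2 changes of Psme1, Psme2, Psme2b, Psme3 and Psme4 were -0.16, 0.04, -0.08, 0.03 and -0.10 with all libraries. Without control libraries 2 and 3 they were -0.05, 0.12, -0.15, -0.07 and 0.02.

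The inhibitor gene Psmf1, whose product PI31 binds the barrel, measured 1.84, 1.31, 1.84 and 1.19 FPKM in AAV-FGF17 libraries and 1.08, 2.03, 2.01 and 1.26 FPKM in controls. The groups overlapped throughout (log2 change -0.02 ± 0.16 SE, limma adjusted p = 0.955; 0.22 without control libraries 2 and 3).

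Assembly factors hold unfinished rings together and leave the finished particle. Psmg1 (ENSMUSG00000022913.14, chr16:95979933-95990960, minus strand), which pairs with Psmg2 to build the alpha ring, measured 6.76, 9.89, 9.74 and 9.26 FPKM in the AAV-FGF17 group and 10.5, 17.4, 29.0 and 9.33 FPKM in control libraries 1 to 4. The groups overlapped at control library 4, and control library 3 was the highest by far. Its log2 change, -0.70 ± 0.30 (SE; unadjusted p = 0.0430, limma adjusted p = 0.495), was the most negative of the 47 genes and became -0.15 without control libraries 2 and 3.

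Psmg2, its partner, did not show this pattern, with 14.97, 15.2, 16.7 and 14.3 FPKM against 17.8, 19.8, 14.2 and 17.2 FPKM, control library 3 being the lowest of the 8. Psmg4 had the most positive log2 change, 0.35 ± 0.22 (SE; limma adjusted p = 0.507), at 2.17 to 4.93 FPKM in AAV-FGF17 hearts and 1.99 to 3.96 FPKM in controls. Its value was 0.13 without control libraries 2 and 3. For the cap, Psmd10 (gankyrin) measured 8.84, 7.84, 9.15 and 10.2 FPKM against 9.56, 10.5, 9.47 and 7.55 FPKM, and Psmd9 measured 1.27, 1.32, 1.23 and 1.80 FPKM against 1.19, 1.302, 2.34 and 1.53 FPKM. In both the groups overlapped, and the 3 cap assembly factors lay between 0.02 and 0.14 relative to the median gene.

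Psmc3ip, the name match that is no subunit, measured 1.46, 1.49, 1.71 and 1.46 FPKM in AAV-FGF17 libraries and 1.33, 1.45, 1.23 and 1.15 FPKM in controls. Every AAV-FGF17 library lay above every control, by a very small margin between AAV-FGF17 library 1 and control library 2. The log2 change was 0.14 ± 0.10 (SE; limma adjusted p = 0.525), and 27.1% of its 50-base stretches occur in the overlapping gene Mlx.

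The largest spread of proteasome genes lay inside the control group. Each gene's log2(FPKM + 1) was set against its median over the 8 libraries, and the SD of these deviations over the 47 genes was 0.32 and 0.45 in control libraries 2 and 3, against 0.13 to 0.17 in the other 6. Over all genes tested the SD in these 2 libraries was 0.34 and 0.47. There 12 and 15 proteasome genes deviated by more than 0.5, or 25.5% and 31.9% of them, beside 13.8% and 29.2% of all genes, against 0 to 2 proteasome genes in each of the other libraries. Psmb5 deviated by 0.92 and 1.28, and Psmg1 by 0.77 and 1.47.

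The deviations in control libraries 2 and 3 were mostly upward, with medians over the 47 genes of 0.23 and 0.20 (0.12 and 0.17 over all genes). Of the proteasome genes that deviated there by more than 0.5, 11 and 14 lay above their median and 1 in each library below. They were not 1 shift shared by every gene. Control libraries 2 and 3 both lay above all other 6 in 19 of the 47 genes (40.4%), against 36.0% of all genes tested. They both lay below in 3, Psmb2, Psmc6 and Psme3 (6.38%, against 6.76% of all genes). The shares among proteasome genes were near those of all genes. Subunits of one ring could thus stand on opposite sides, as Psmc3 and Psmc6 or Psmb4 and Psmb2 did.

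**Figure D3:**
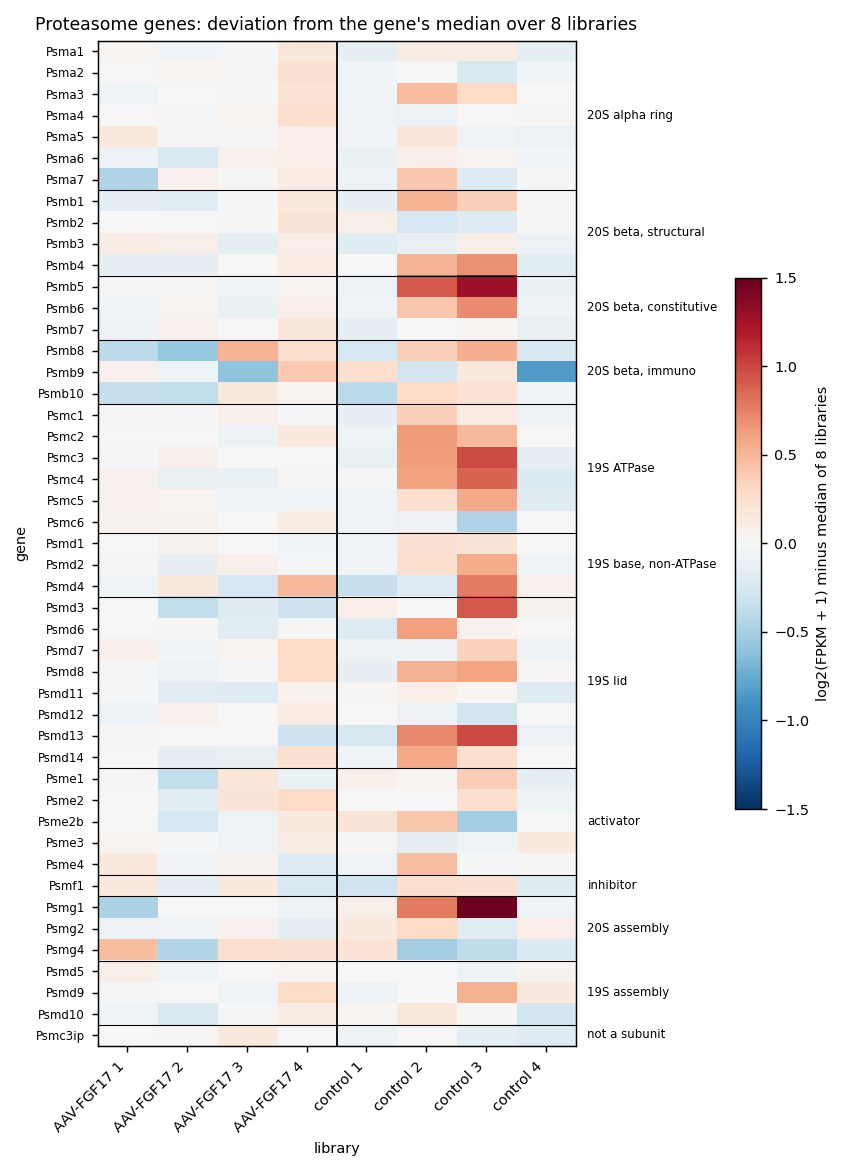
Deviation of log2(FPKM + 1) from the gene's median over the 8 libraries (colour) for the 47 tested proteasome genes, ordered by role, in each library. Control libraries 2 and 3 hold most of the deep colours, from -0.53 (Psmg4) to 0.92 (Psmb5) in library 2 and from -0.51 (Psme2b) to 1.47 (Psmg1) in library 3.

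The deviations in control library 3 followed base composition. Over the 47 genes, Spearman's rho between the deviation and the GC content of the longest coding transcript was 0.57 in control library 3, against 0.61 over 9988 genes in the same library. It was 0.04 in control library 2 (0.24 over all genes) and between -0.27 and -0.04 in the other 6. These are descriptions across genes, all of whose values share the scaling of a library. In control library 3 the median deviation was 0.02 in the 16 genes of lowest GC content (37.0% to 48.7%), 0.23 in the middle 15 and 0.57 in the 16 of highest GC content (52.6% to 58.3%).

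Of the 3 genes among the 47 whose groups did not overlap, Psmc6, higher in AAV-FGF17 hearts, had the lowest GC content of the 47, 37.0%, and Psmd3, lower in AAV-FGF17 hearts, the highest, 58.3%. The other, Psmc3ip, lay in the middle at 49.8%. Psma1, Psma2 and Psmb7, whose groups separated after median-of-ratios scaling, had 44.0%, 39.4% and 48.7%, and Psmb5 and Psmb6 had 56.6% and 55.8%. The part of base composition in these differences was not tested.

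**Figure D4:**
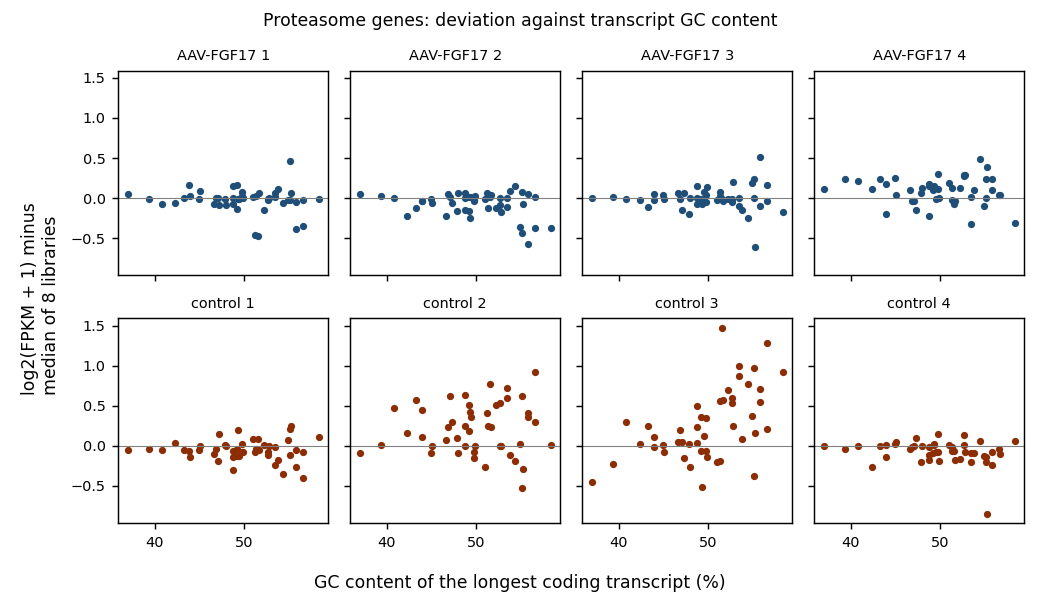
Deviation of log2(FPKM + 1) from the gene's median over the 8 libraries against the GC content of the longest coding transcript (%), 1 point per tested proteasome gene and 1 panel per library. The points rise with GC content in control library 3 (Spearman's rho 0.57, n = 47). In the 6 libraries other than control libraries 2 and 3 rho lay between -0.27 and -0.04. Single genes there deviated by as much as -0.85 (Psmb9 in control library 4).

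Genes that work with the proteasome were read from 8 lists, and 0 genes of any of them passed limma in either direction. Among the 10 tested proteins that bind proteasomes, Uchl5, a deubiquitinase of the cap, measured 13.5 ± 1.27 FPKM in AAV-FGF17 hearts and 9.79 ± 1.22 FPKM in controls (SD, n = 4), and its groups did not overlap (log2 change 0.43 ± 0.12 SE, limma adjusted p = 0.495). Ube3c, a ubiquitin ligase that extends chains on proteasomes, measured 4.76 ± 0.263 and 6.12 ± 0.904 FPKM, also without overlap. Akirin2, whose product carries proteasomes into the nucleus in human cells, was the remaining gene of the list without overlap, at 16.4 to 19.2 FPKM against 11.3 to 15.2 FPKM. Among all genes 0.998% separated the groups on the higher side, as Uchl5 and Akirin2 did, and 4.64% on the lower side, as Ube3c did. The log2 changes of Uchl5, Ube3c and Akirin2 were 0.43, -0.30 and 0.29 with all libraries and 0.29, -0.17 and 0.19 without control libraries 2 and 3. The list's median lay 0.03 above the median gene, with 5 genes above it and 5 below. It also holds Adrm1 and Sem1, cap subunits whose symbols the name rule does not reach, which in AAV-FGF17 hearts and controls measured 7.12 ± 0.547 and 8.36 ± 1.91 FPKM and 55.3 ± 3.03 and 77.1 ± 26.2 FPKM, with overlap of the groups in both.

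The control of proteasome genes by NFE2L1 was read from 7 genes, 3 above the median gene and 4 below (list median -0.01). Nfe2l1 itself measured 26.1 ± 8.83 FPKM in AAV-FGF17 hearts and 35.4 ± 9.53 FPKM in controls, and Ddi2, the protease that activates its product, 3.35 ± 0.495 and 3.80 ± 0.217 FPKM. Both overlapped between groups, and their log2 changes were -0.44 and -0.15 with all libraries and -0.19 and -0.10 without control libraries 2 and 3. Nfe2l1 is also controlled after transcription, which these data do not show.

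Ubiquitin is attached by an activating enzyme, conjugating enzymes and ligases. Uba1, the main activating enzyme, measured 25.1 ± 1.201 and 31.0 ± 5.54 FPKM (log2 change -0.28, and -0.08 without control libraries 2 and 3), in a list of 6 with 3 above the median gene and 3 below. Of 20 conjugating enzymes 17 lay above the median gene and 3 below, with a list median 0.19 above it. As fitted, that median was 0.07 with all libraries and 0.03 without control libraries 2 and 3. The 2 of smallest p were Ube2g2 (26.7 ± 5.29 and 35.0 ± 4.40 FPKM) and Ube2d3 (11.2 ± 2.91 and 8.14 ± 2.14 FPKM), whose log2 changes were -0.39 and 0.42 with all libraries and -0.24 and 0.16 without these.

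Ligases of muscle gave 8 genes above the median gene and 7 below. Stub1, the chaperone-linked ligase CHIP, measured 39.7 ± 3.75 and 56.1 ± 14.5 FPKM, and Fbxl22, an F-box gene of heart muscle, 2.98 ± 0.213 and 3.95 ± 0.992 FPKM. Their log2 changes were -0.46 and -0.30 with all libraries and -0.15 and -0.10 without control libraries 2 and 3. Of the 12 shuttle and extraction factors 5 lay above and 7 below. Ufd1 and Faf2, cofactors of the p97 ATPase that extracts substrates, did not overlap between groups, at 3.21 ± 0.067 against 4.35 ± 1.04 FPKM and 2.90 ± 0.213 against 3.55 ± 0.311 FPKM (4.64% of all genes separated the groups on this side). Their log2 changes were -0.32 and -0.22 with all libraries and -0.08 and -0.18 without control libraries 2 and 3.

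Peptides made by the immunoproteasome are loaded on class I molecules, and 5 of the 8 genes of this loading lay above the median gene and 3 below. Canx, a chaperone of the complex, measured 59.5 ± 3.98 and 79.3 ± 18.7 FPKM, and Tapbp, tapasin, 8.64 ± 1.54 and 11.3 ± 3.70 FPKM. Their log2 changes were -0.38 and -0.31 with all libraries and -0.10 and 0.05 without control libraries 2 and 3. Of the 8 tested interferon regulators 4 lay above and 4 below. Jak1, a kinase of interferon receptors, measured 21.7 ± 1.88 and 27.7 ± 4.27 FPKM, and the transcription factor Irf1 measured 5.17 ± 0.700 and 7.50 ± 2.84 FPKM. For these the log2 changes were -0.33 and -0.41 with all libraries and -0.15 and -0.02 without control libraries 2 and 3.

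Markers of other cell types are given as sums over each whole list, and 0 of their genes passed limma. White adipocyte markers, 6 of 6 below the median gene, summed to 51.1 to 207 FPKM in AAV-FGF17 hearts and 146 to 350 FPKM in controls (Cfd 44.7 ± 34.4 and 109.5 ± 68.4, Car3 36.6 ± 26.1 and 66.6 ± 19.3 FPKM). Atrial markers, 5 of 5 below it, summed to 563 to 1882 and 1389 to 3038 FPKM (Nppa 950 ± 487 and 1609 ± 430, Myl7 252 ± 149 and 447 ± 193 FPKM). Smooth muscle markers, 4 of 4 below it, summed to 76.8 to 148.5 and 145.5 to 213 FPKM (Acta2 74.0 ± 18.9 and 106 ± 15.6, Tagln 18.0 ± 5.55 and 32.6 ± 9.13 FPKM), and endothelial markers, 5 of 6 below it, to 88.3 to 119 and 120.0 to 158 FPKM (Cdh5 43.6 ± 5.26 and 56.0 ± 8.31, Pecam1 25.3 ± 3.68 and 32.0 ± 1.11 FPKM). The median log2 change of the endothelial markers was -0.42 with all libraries and -0.12 without control libraries 2 and 3. Those of the white adipocyte, atrial and smooth muscle markers were -1.08, -0.95 and -0.63 with all libraries. Without control libraries 2 and 3 they were -0.95, -0.99 and -0.47.

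Fibroblast markers, 4 of 6 above the median gene, summed to 145 to 178.5 FPKM in AAV-FGF17 hearts and 129.8 to 142 FPKM in controls (Dcn 107 ± 7.75 and 80.3 ± 12.2, Lum 32.7 ± 4.02 and 26.1 ± 1.61 FPKM), and erythroid markers, 5 of 5 above it, to 929 to 1362 and 651 to 1238 FPKM (Hbb-bs 399 ± 74.0 and 379 ± 171, Hba-a2 314 ± 54.1 and 239 ± 55.0 FPKM). Their median log2 changes were 0.18 and 0.25 with all libraries and 0.16 and 0.71 without control libraries 2 and 3. Cardiomyocyte markers lay below the median gene in 6 of 7, and the most abundant, Mb and Myh6, measured 3988 ± 301 and 5279 ± 1755 FPKM and 2718 ± 292 and 4323 ± 2193 FPKM. The log2 changes of Mb and Myh6 were -0.345 and -0.55 with all libraries and 0.08 and -0.03 without control libraries 2 and 3. The median over the 7 cardiomyocyte markers went from -0.37 to 0.02 without these libraries. The part of the makeup of the hearts in the levels of proteasome genes was not tested.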

How the data were processed

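RNA of mouse hearts was sequenced in 8 libraries, 4 per group. Per the labels' protocols, total RNA was taken up in Trizol and sequenced by a standard Illumina method. GRCm38, HISAT2 2.1.0, StringTie 1.3.3, cutadapt 1.17 and FastQC 0.11.7 appear in the submitters' processing notes, without settings. The values the authors deposited are FPKM per gene and library, which are scaled by transcript length and by each library's total. Reads shared by similar genes may be split between them, and no source states whether counting used the strand. The larger group mean of every listed gene was at least 0.501 FPKM, and 1 empty line was left out. Columns were matched to samples by title, with 0 columns of per-sample values left unassigned.

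Genes whose mean reached 1 FPKM were fitted together on log2(FPKM + 1), which understates changes of low genes, with limma 3.58.1 (R 4.3.3), a variance trend, all 8 libraries and no covariates. P-values were adjusted by Benjamini-Hochberg over the 10025 genes at 0.05. For Fgf17 an exact two-sided permutation test over libraries was added. No test was made over the proteasome genes as a list. The members and lists were chosen with earlier results of these data known. Values in every library are given for the catalytic subunits, the activators, the gene of smallest p and of highest level in each role, and the genes whose groups do not overlap. The 2 genes of smallest p stand for each pathway list and the 2 most abundant for each cell type list, except for 1 gene that is left unreported. Psmd13, Psmd14, Psmd4, Psmc3, Psmb2, Psmg4, Adrm1 and Sem1 were added after their values were seen, as was Akirin2.

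Sequencing depth is unknown. Low values were searched for whole-read steps, and the highest share found whole within 0.05 reads in any library was 30.2%. Random values give 10% without a search, so these shares are not directly comparable. No count test was run. GC content and shared stretches of 50 bases came from GENCODE M21 transcripts, and promoter windows from RefSeq. The fit was tested on simulated data. Replicate numbers did not pair the libraries. The alternatives were another pseudocount, no filter, other scalings, array weights, the replicate number as a block, and libraries left out or averaged.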

Additional observations from a re-analysis of the deposited data

Results flagged for a closer look

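Each of the 49 genes was checked for a library far from the other 3 of its group, by the gap to its nearest neighbour over the group's range (Dixon's 95% critical value). This marked 8 of 98 groups of 4, where chance marks about 1 in 20. Of these, 5 were AAV-FGF17 libraries and 3 control libraries.

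AAV-FGF17 library 4 stood apart in Psma2 (21.96 FPKM, above the others), Psmd9 (1.80 FPKM, above) and Psmd13 (5.26 FPKM, below). AAV-FGF17 library 3 stood apart in Psmb3 (10.5 FPKM, below) and Psmc3ip (1.71 FPKM, above). Control library 3 stood apart in Psmd3 (20.8 FPKM) and Psmd7 (78.1 FPKM), and control library 2 in Psme4 (42.6 FPKM), each above the others. Without control libraries 2 and 3 the log2 change of Psmd3 was -0.30 against -0.49 with all libraries, and that of Psmd7 was 0.18 against 0.07. Where control libraries 2 and 3 both lie far from the others, this measure marks neither. What sets these libraries apart was not tested.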

How the results depend on the processing

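In every alternative run, 0 proteasome genes passed the limma threshold, and the smallest limma adjusted p of a proteasome gene ran from 0.290 to 0.932. Their signs were less steady: from 0 to 27 of the 47 log2 changes took the other sign in an alternative, 27 without control libraries 2 and 3, 18 with values scaled to the sum of nuclear genes, 16 with array weights and 12 with median-of-ratios scaling. The median log2 change, -0.09 as fitted, was 0.053 with median-of-ratios scaling, 0.096 scaled to nuclear genes and 0.068 without control libraries 2 and 3. Relative to the median gene it moved by less than the spread between libraries. Over all genes, 4 were called higher and 1 lower with array weights, and 5 higher and 1 lower without control libraries 2 and 3. Leaving out single libraries gave 0 to 1 higher and 0 to 3 lower, most without control library 1. Fgf17 passed limma with array weights (log2 change 3.44, adjusted p = 0.0189) and without control libraries 2 and 3 (3.34, adjusted p = 0.0361). With single libraries left out its log2 change ran from 4.05 to 4.99, and it passed without control library 1 (4.97, adjusted p = 0.0368). The cause was not tested. The replicate numbers did not pair the libraries, as deviations of same-numbered libraries correlated at 0.01, 0.00, 0.02 and -0.11. With the number as a block, 0 genes were called in either direction and the median stayed at -0.09. Depth is unknown, so the spread between 4 libraries per group sets what could be detected.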
